A study of Mus musculus with 4 samples.

Results

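Small nucleolar RNAs were read on these arrays as the genes whose only symbol in the platform annotation was *Snord* (C/D box class) or *Snora* (H/ACA class) followed by a number. They came to 51 genes of the 19938 with 1 symbol, 31 of the C/D box class and 20 of the H/ACA class. They were read by 56 of the 35556 probe sets, 33 for C/D box and 23 for H/ACA genes. The platform symbols of all 51 were still current.

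Expression was measured in whole mouse cochleas at embryonic day 15 (E15) on 4 Affymetrix Mouse Gene ST arrays. Of these, 2 were labelled wild type (replicates 2 and 3), and 2 were labelled *Meis2* knockout (replicates 1 and 2). The study gives the mutants as *Meis2* flox/flox; *Pax2* Cre/+ embryos, in which the Cre transgene is active in the otic placode and vesicle, so that other tissue of the cochlea keeps its alleles unless it descends from these cells. The Cre and flox status of the wild-type embryos and the number of embryos behind each array are not given in the sources used here. The question of the screen was which genes differ in the cochlea when the transcription factor Meis2 is lost from the inner ear. For *Meis2* itself the log2 signal was 9.64 and 9.38 in wild type and 9.61 and 9.80 in mutants, which did not pass the test (limma adjusted p = 0.284). The exons that its probe set reads are not known here, so this signal does not check the genotype labels.

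Small nucleolar RNAs are short, stable RNAs of the nucleolus that pair with ribosomal RNA and guide its chemical modification. C/D box members direct 2′-O-methylation by the methyltransferase fibrillarin, whereas H/ACA members direct pseudouridylation by dyskerin, and a few of each class are needed to cleave the ribosomal RNA precursor instead. In mammals nearly all are cut out of introns of other genes, called hosts, after splicing, debranching of the intron lariat and trimming by exonucleases. A whole-transcript array was not made for RNAs of this size. In the RefSeq annotation of GRCm38.p6 the C/D box members were 45 to 148 bases long (median 68) and the H/ACA members 61 to 205 bases (median 125). A probe set within an intron cannot tell the mature RNA from the unspliced transcript of its host. Column kits such as the RNeasy kit used here retain short RNAs poorly, and the part of this in the values was not tested.

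A difference is the mutant mean minus the wild-type mean of the log2 signals, so that 1 is a doubling. Each difference was tested with limma, which borrows information on the spread from all probe sets, and p-values were adjusted by Benjamini-Hochberg over the 35556 probe sets, with calls made below 0.05. The standard error (SE) of a difference rested on 2 residual degrees of freedom, to which the prior added 2.91. Nothing says that arrays of a genotype came from separate animals, so the p-values measure only the spread between these arrays. Over all probe sets, 21.6% were called higher in mutants and 15.7% lower. Over all genes, 24.2% were called higher and 16.2% lower, and the genotypes did not overlap in 80.4%. The median difference was 0.11 over all probe sets. Counts of calls among small nucleolar RNAs are to be read against these shares.

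Signs of embryo sex differed with genotype. *Xist*, the RNA of the inactive X chromosome, had signals of 5.54 and 11.51 in wild type and 11.83 and 11.84 in mutants, and the Y-linked *Eif2s3y* had 8.76 and 7.77 in wild type and 4.68 and 4.88 in mutants. Wild-type replicate 2 therefore stood apart from the other 3 arrays at *Xist*, and sex and genotype cannot be told apart. Some results are also given without that array, though not every result that it changed. Leaving it out does not remove the sex difference. Wild-type replicate 3 was high at both *Xist* and *Eif2s3y*, so the difference from mutants at *Eif2s3y* stays.

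Most C/D box calls were higher in mutants and most H/ACA calls were lower. Of 31 C/D box genes, 8 were higher in mutants, 4 were lower and 19 did not pass the test. Of 20 H/ACA genes, 2 were higher, 7 were lower and 11 did not pass. C/D box genes were thus higher in 25.8% and lower in 12.9%, near the shares of all genes. H/ACA genes were higher in 2 of 20 and lower in 35.0%, against 24.2% and 16.2% of all genes. The 7 lower H/ACA genes are not independent, as 4 of them lie in only 2 host genes. Whether the classes differ from all genes or from each other was not tested. The median difference was 0.12 for C/D box genes, which became 0.04 after median scaling and -0.03 when quantile normalization was repeated, and -0.23 for H/ACA genes. Without wild-type replicate 2 the H/ACA median was -0.077, and with wild-type replicate 3 left out it was -0.46, while the C/D box median was then 0.14 and -0.01. Differences ran from -0.84 to 2.33 among C/D box genes and from -2.59 to 1.35 among H/ACA genes. Called differences of at least 2-fold were found in 10 of the 51 members, against 4.96% of all genes. The genotypes did not overlap in 18 of 31 C/D box and 15 of 20 H/ACA genes, below the 80.4% of all genes for both classes. Without wild-type replicate 2, the counts were 9 higher and 5 lower for C/D box genes and 4 higher and 6 lower for H/ACA genes.

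The median gap between the 2 wild-type arrays was 0.32 for C/D box and 0.24 for H/ACA genes, against 0.12 over all probe sets. Between the mutant arrays it was 0.20 and 0.21, against 0.10 over all probe sets. Wide gaps were not particular to small nucleolar RNAs: for 15 small nuclear, Cajal body and related RNAs the median gaps were 0.40 between the wild-type and 0.15 between the mutant arrays. The widest wild-type gaps were those of *Snora7a* (1.32), *Snord15a* (1.10) and *Snord49b* (1.06), and none of these genes passed the test. Of the members, 20 C/D box and 13 H/ACA genes had a mean signal above the median probe set of 6.69.

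**Figure D1:**
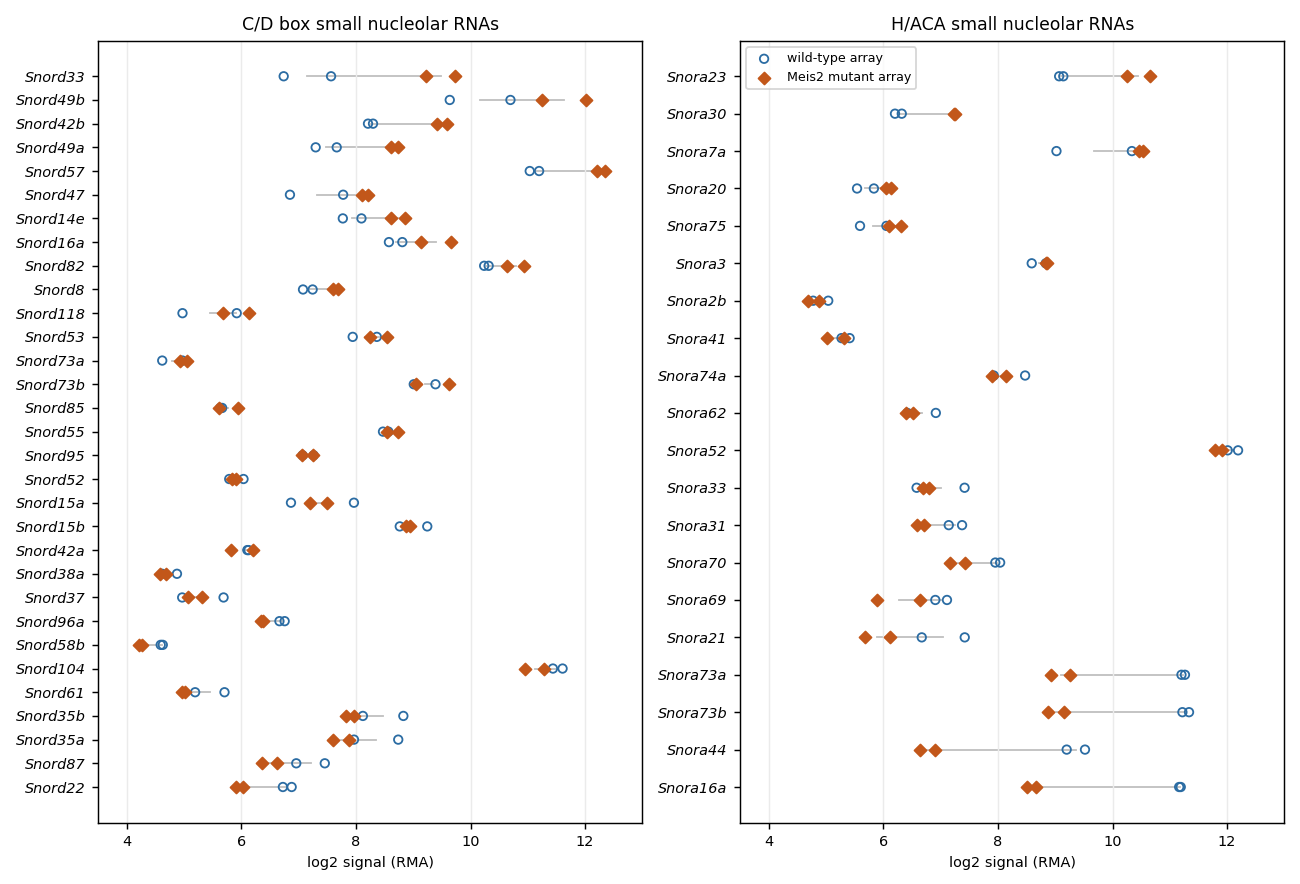
Log2 signal (horizontal axis) of each of the 31 C/D box genes (left) and 20 H/ACA genes (right) on the 2 wild-type arrays (open circles) and the 2 *Meis2* mutant arrays (filled diamonds), with a line joining the genotype means, ordered by the difference. Circles and diamonds lie far apart for *Snord33* at the top left and for 4 H/ACA genes at the bottom right, while for 18 members the genotypes overlap. Signals of different genes come from different probes and are not to be compared.

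Among C/D box genes, 4 rose by more than 2-fold. *Snord33*, which guides methylation of the small-subunit ribosomal RNA, had signals of 7.57 and 6.74 in wild type and 9.22 and 9.74 in mutants. It was higher in mutants by 2.33 (SE 0.32, 95% confidence interval 1.50 to 3.16, limma adjusted p = 0.00783), a 5.01-fold difference. Both mutant arrays lay above both wild-type arrays, although the wild-type arrays themselves differed by 0.83. *Snord42b* had 8.21 and 8.30 in wild type and 9.59 and 9.42 in mutants, a difference of 1.25 (SE 0.10, limma adjusted p = 0.00306). *Snord49a* had 7.66 and 7.30 in wild type and 8.62 and 8.74 in mutants, a difference of 1.20 (SE 0.15, limma adjusted p = 0.00599). *Snord57* had 11.03 and 11.20 in wild type and 12.21 and 12.34 in mutants, a difference of 1.16 (SE 0.10, limma adjusted p = 0.0036). In all 4 genes both mutant arrays were above both wild-type arrays, which the rule for naming genes required. The genotypes did not overlap in 80.4% of all genes. With 1 array left out, the difference ran from 1.91 to 2.74 for *Snord33* and from 1.17 to 1.33 for *Snord42b*.

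The other 4 C/D box genes that rose did so by less. *Snord14e*, of a family needed to process the small-subunit ribosomal RNA, had 8.10 and 7.77 in wild type and 8.61 and 8.86 in mutants (difference 0.80, limma adjusted p = 0.0166, and 0.0812 without *Meis2* mutant replicate 2). *Snord16a* had 8.81 and 8.58 in wild type and 9.65 and 9.13 in mutants (difference 0.70, limma adjusted p = 0.0474). *Snord82* had 10.24 and 10.32 in wild type and 10.64 and 10.93 in mutants (difference 0.51, limma adjusted p = 0.031). The calls of *Snord16a* and *Snord82* were lost after median scaling (limma adjusted p = 0.0717 and 0.0565). *Snord16a* also lost its call without wild-type replicate 2, wild-type replicate 3 or *Meis2* mutant replicate 1 (limma adjusted p = 0.0685, 0.138 and 0.125). *Snord82* lost it without wild-type replicate 2, wild-type replicate 3 or *Meis2* mutant replicate 2 (limma adjusted p = 0.0886, 0.0666 and 0.121). *Snord8* had 7.24 and 7.08 in wild type and 7.69 and 7.59 in mutants (difference 0.48, limma adjusted p = 0.0204), and its call was lost without wild-type replicate 3, *Meis2* mutant replicate 1 or *Meis2* mutant replicate 2 (limma adjusted p = 0.0585, 0.103 and 0.0774). With wild-type replicate 3 left out, 5 C/D box genes were called higher, and with *Meis2* mutant replicate 2 left out the count was again 5.

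The 4 C/D box genes that fell did so by less than 2-fold. *Snord22*, a member needed for processing of the small-subunit ribosomal RNA rather than its methylation, had 6.88 and 6.72 in wild type and 5.90 and 6.03 in mutants. It fell by 0.84 (SE 0.10, limma adjusted p = 0.00573) and stayed past the threshold whichever array was left out. *Snord87* had 6.96 and 7.46 in wild type and 6.36 and 6.62 in mutants (difference -0.72, limma adjusted p = 0.0422). *Snord58b* had 4.59 and 4.63 in wild type and 4.27 and 4.21 in mutants (difference -0.37, limma adjusted p = 0.0234), and its other probe set gave -0.36. *Snord96a* had 6.76 and 6.66 in wild type and 6.38 and 6.35 in mutants (difference -0.35, limma adjusted p = 0.0297, and 0.05005 with a trended prior). The mean signals of *Snord22*, *Snord58b* and *Snord96a* lay below the median of all probe sets, and with probe sets below that median left out 1 C/D box gene was called lower. *Snord87* lost its call without wild-type replicate 3, *Meis2* mutant replicate 1 or *Meis2* mutant replicate 2 (limma adjusted p = 0.0787, 0.163 and 0.0927). *Snord58b* and *Snord96a* lost theirs whichever of the 4 arrays was left out, with adjusted p of up to 0.13 and 0.145 by limma. The count of C/D box genes called lower was 1 without wild-type replicate 3, without *Meis2* mutant replicate 1 and without *Meis2* mutant replicate 2.

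Of the 19 C/D box genes that did not pass, *Snord49b* had 10.70 and 9.64 in wild type and 11.25 and 12.01 in mutants. Its difference of 1.46 (SE 0.42, 95% confidence interval 0.37 to 2.56) had an adjusted p of 0.0502 by limma, which was 0.02 without wild-type replicate 2. *Snord47* had 7.78 and 6.85 in wild type and 8.22 and 8.11 in mutants (difference 0.85, limma adjusted p = 0.0854). *Snord104* had 11.61 and 11.44 in wild type and 10.96 and 11.29 in mutants (difference -0.40, limma adjusted p = 0.0817). In these 3 genes too the genotypes did not overlap. *Snord73b* had 9.39 and 9.01 in wild type and 9.05 and 9.62 in mutants, with overlapping genotypes (difference 0.14, limma adjusted p = 0.657). The sign of its difference turned when wild-type replicate 3 (-0.05) or *Meis2* mutant replicate 2 (-0.15) was left out. *Snord118*, which is needed to process the large-subunit ribosomal RNA and is transcribed from a gene of its own, had 5.92 and 4.97 in wild type and 6.14 and 5.68 in mutants (difference 0.46, limma adjusted p = 0.327). The others that did not pass had differences between -0.61 and 0.24.

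Among H/ACA genes, 4 fell by more than 4-fold. *Snora16a* had signals of 11.16 and 11.19 in wild type and 8.67 and 8.51 in mutants, a difference of -2.59 (SE 0.09, 95% confidence interval -2.83 to -2.35, limma adjusted p = 0.00244), or 6.03-fold. *Snora44* had 9.20 and 9.52 in wild type and 6.91 and 6.63 in mutants, also a difference of -2.59 (SE 0.15, limma adjusted p = 0.00263). In both genes the gap between genotypes was far wider than that between replicate arrays, which was at most 0.32. *Snora73b* had 11.34 and 11.22 in wild type and 8.87 and 9.15 in mutants, a difference of -2.26 (SE 0.12, limma adjusted p = 0.00257). *Snora73a* had 11.26 and 11.20 in wild type and 8.92 and 9.27 in mutants, a difference of -2.14 (SE 0.13, limma adjusted p = 0.00272). *Snora73a* and *Snora73b* are near-identical copies that do not guide a modification but take part in cleaving the ribosomal RNA precursor, and their probes may read each other's RNA. The calls of these 4 genes held without each of the 4 arrays, with a highest adjusted p of 0.0247 by limma.

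The other 3 H/ACA genes that fell did so by smaller amounts. *Snora21* had 7.42 and 6.67 in wild type and 6.11 and 5.68 in mutants (difference -1.15, SE 0.29, limma adjusted p = 0.0341), and its other probe set gave -1.10. Its mean signal of 6.47 lay below the median of all probe sets. *Snora70* had 8.04 and 7.95 in wild type and 7.43 and 7.17 in mutants (difference -0.70, SE 0.12, limma adjusted p = 0.0124). *Snora31* had 7.37 and 7.14 in wild type and 6.72 and 6.58 in mutants (difference -0.61, SE 0.11, limma adjusted p = 0.0168). *Snora21* lost its call without wild-type replicate 2, *Meis2* mutant replicate 1 or *Meis2* mutant replicate 2 (limma adjusted p = 0.0549, 0.0668 and 0.139), *Snora31* without *Meis2* mutant replicate 1 or 2 (limma adjusted p = 0.0576 and 0.0911), and *Snora70* without *Meis2* mutant replicate 2 (limma adjusted p = 0.0579). The count of H/ACA genes called lower was 4 without *Meis2* mutant replicate 2. *Snora70* lies on the X chromosome, as do *Snora69* (difference -0.74, limma adjusted p = 0.0783) and the C/D box gene *Snord61* (difference -0.45, limma adjusted p = 0.109). All 3 X-linked members had values below 0, beside the difference in *Xist* given above, whose part in them was not tested.

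The 2 H/ACA genes that rose were *Snora23* and *Snora30*. *Snora23* had 9.14 and 9.07 in wild type and 10.65 and 10.25 in mutants, a difference of 1.35 (SE 0.15, limma adjusted p = 0.00505). *Snora30* had 6.32 and 6.20 in wild type and 7.24 and 7.25 in mutants, a difference of 0.98 (SE 0.09, limma adjusted p = 0.00352). Both stayed past the threshold whichever array was left out. *Snora7a* had 10.34 and 9.02 in wild type and 10.46 and 10.53 in mutants (difference 0.81, limma adjusted p = 0.187). Its wild-type arrays alone differed by more than the genotypes, and without wild-type replicate 2 it passed (difference 1.47, limma adjusted p = 0.00737). The count of H/ACA genes called higher was 4 without that array. *Snora52* had 12.19 and 12.01 in wild type and 11.92 and 11.79 in mutants (difference -0.25, limma adjusted p = 0.118). The remaining 8 H/ACA genes that did not pass, other than *Snora69*, had differences between -0.26 and 0.40.

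**Figure D2:**
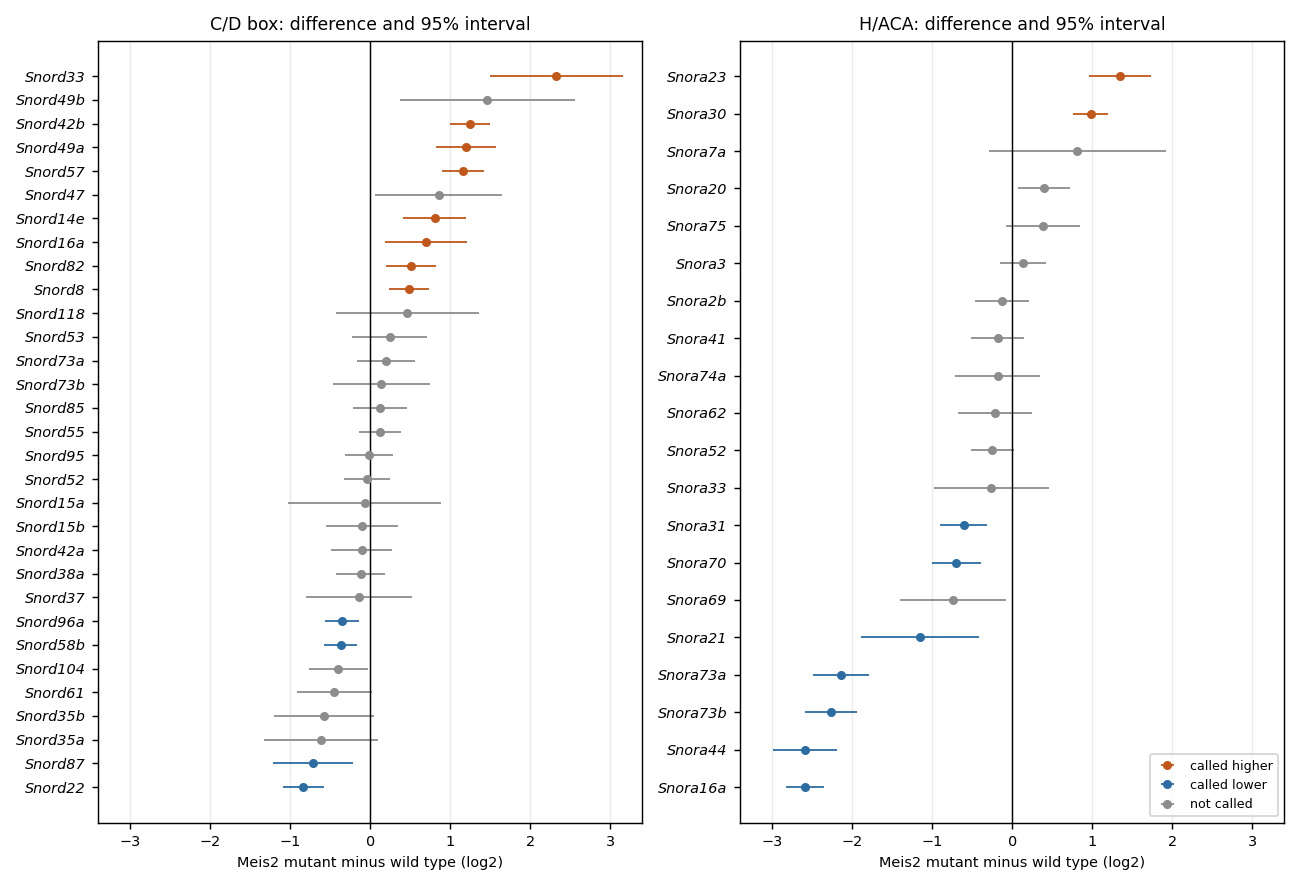
Difference of mutant minus wild type (log2, points) with its 95% confidence interval by limma (lines) for the C/D box genes (left) and the H/ACA genes (right), coloured by call (orange higher, blue lower, grey not called). The called H/ACA genes fall into 4 between -2.59 and -2.14, 3 between -1.15 and -0.61, and 2 at 0.98 and 1.35, whereas the called C/D box genes lie between -0.84 and 2.33.

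Most small nucleolar RNAs lie within another gene, and the gene whose RefSeq span holds each was taken as its host, with the strand of the member not checked. A span gene was found for 50 of the 51 members, all but *Snord118*, and these were 40 different genes. Of the members, 21 lay in genes of ribosomal proteins, 12 in long non-coding genes and 17 in other protein-coding genes. In long non-coding hosts 1 member was higher and 6 were lower, and in ribosomal protein hosts 3 were higher and 3 lower. In other protein-coding hosts 6 were higher and 2 lower. Over all genes, 24.2% were higher and 16.2% lower. Members that share a host were counted apart, and the 6 lower ones in long non-coding hosts include 4 from *Snhg12* and *Snhg3*. The 4 H/ACA genes that fell most came from only 2 hosts. *Snora16a* and *Snora44* lie in *Snhg12*, and *Snora73a* and *Snora73b* lie in *Snhg3*, both long non-coding genes of chromosome 4 that are known for the RNAs in their introns. *Snhg12* and *Snhg3* are neighbours with 2 genes between them, of which *Trnau1ap* had a difference of -0.33 and *Rcc1* of 0.28 (limma adjusted p = 0.124 and 0.123). Of the 10 genes with a signal between them and up to 5 places to either side, 3 were lower (*Taf12*, *Atpif1* and *Dnajc8*), 1 was higher (*Sesn2*) and 6 did not pass. Neither *Snhg12* nor *Snhg3* is named by 1 symbol on these probe sets, so the hosts' own levels were not analysed here.

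Hosts of small nucleolar RNAs are known for transcripts that begin in a run of pyrimidines, a feature of growth-regulated messenger RNAs. Such a run is C or T on the strand that reads like the transcript. The annotated starts of 8 hosts are shown as 30 bases, 20 before the start and 10 from it on, from RefSeq on GRCm38.p6. Capitals mark the run of C and T that comes within 5 bases of the start, as far as the window shows it. *Snhg12*, *Snhg3* and *Rpl13a* are shown as hosts of the members with the largest differences, *2410006H16Rik* as host of *Snord49a* and *Snord49b*, and the last 4 as hosts that were called together with a member:
Snhg12, chr4:132308658-132308687, plus strand: gtgcaggccgttctcagTCCTTTCTCgctt
Snhg3, chr4:132353677-132353706, minus strand: aggcatagtcgaccacgcctgaCTTCCggg
Rpl13a, chr7:45128736-45128765, minus strand: gataagaaaccctgcgacaagaCCTCCTCC
2410006H16Rik, chr11:62602857-62602886, plus strand: ggcgctcacgcgccgTCTTTCTCTgcggcc
Ipo7, chr7:110018295-110018324, plus strand: gggccttggcgCTTCTCTTTCCTTTCgcgc
Nop56, chr2:130274392-130274421, plus strand: ggagaaggtgtggTCTCCgcagtctggttc
Srcap, chr7:127511963-127511992, plus strand: gcgagcctacccgCCCCTTCagcctccagt
Ncl, chr1:86359446-86359475, minus strand: cggttggctccggggaCggacgcgagctct
The runs were 9 bases long in *Snhg12*, 5 in *Snhg3*, 14 in *Rpl13a* (8 of them in the window), 9 in *2410006H16Rik*, 15 in *Ipo7*, 5 in *Nop56*, 7 in *Srcap* and 1 in *Ncl*. A start was listed for 31 of the 40 hosts. Of these, 13 had a run of 6 or more (41.9%), against 20.1% of 27025 genes with a start. Hosts of members that rose and of members that fell both held such runs. A run of letters is a description of the annotated start and says nothing of where transcripts began in these samples.

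Neighbours in 1 host did not always move alike. In *Rpl13a*, *Snord33* rose by 2.33 while *Snord35a* had 7.97 and 8.74 in wild type and 7.59 and 7.88 in mutants (difference -0.61, limma adjusted p = 0.138). In *Rpl23a*, *Snord42b* rose by 1.25 while *Snord42a* had 6.10 and 6.13 in wild type and 5.81 and 6.21 in mutants (difference -0.11, limma adjusted p = 0.587). In the non-coding host *2410006H16Rik*, *Snord49a* rose by 1.20, and *Snord49b* had a difference of 1.46 that did not pass. In *Ncl*, *Snord82* rose by 0.51, and the H/ACA gene *Snora75* had a difference of 0.38 (limma adjusted p = 0.15). Of 10 hosts with 2 members each, only *Snhg12* and *Snhg3* had both members called.

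The hosts themselves were mostly lower in mutants. Of 24 hosts with a probe set of their own symbol, 3 were higher, 15 were lower and 6 did not pass, and their median difference was -0.51. These shares were 12.5% higher and 62.5% lower, against 24.2% and 16.2% of all genes. Ribosomal protein genes, some of which are hosts, were lower in 60.7%, so the share is not particular to hosts. With gene values averaged over their probe sets, 1 host was higher and 18 were lower. Without *Meis2* mutant replicate 2 the counts were 0 higher and 5 lower, and without *Meis2* mutant replicate 1 they were 1 higher and 9 lower. *Ncl*, which encodes the nucleolar protein nucleolin, fell by 1.31 (limma adjusted p = 0.00313). *Rps12*, a ribosomal protein gene that hosts *Snora33*, fell by 1.13 (limma adjusted p = 0.0045), and all 14 of its probe sets were called lower. *Eef1b2*, a translation elongation factor that hosts *Snora41*, fell by 0.83 (limma adjusted p = 0.00383). Probe sets of 1 host could disagree: *Rpsa* and *Gas5* were each called higher at the probe set used here, but 4 of 5 probe sets of *Rpsa* and 3 of 4 of *Gas5* were called lower.

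A small nucleolar RNA and its host had differences of opposite sign in 16 of 28 pairs with a measured host, and of the same sign in 12. In 13 of the opposite pairs the member lay above 0 and the host below. Of the 24 measured hosts, 19 lay below 0, so most members above 0 would form such a pair without any link to the host. Whether members and hosts moved apart more than this was not tested. In 8 pairs both passed the test. In 5 of them the member was higher and the host lower: *Snord57* with *Nop56*, *Snora23* with *Ipo7*, *Snord42b* with *Rpl23a*, *Snord82* with *Ncl*, and *Snord16a* with *Rpl4*. *Nop56*, itself a core protein of C/D box particles, had mean signals of 10.60 in wild type and 10.10 in mutants and fell by 0.50 (limma adjusted p = 0.0182) while the RNA within its span rose by 1.16. *Ipo7*, a nuclear import receptor for ribosomal proteins, had 10.09 and 10.15 in wild type and 9.38 and 9.35 in mutants, so that it fell by 0.75 (limma adjusted p = 0.0047) while *Snora23* rose by 1.35. *Rpl23a* fell by 0.62 (limma adjusted p = 0.0115) and all 13 of its probe sets were called lower. *Rpl4* fell by 0.54 (limma adjusted p = 0.0195). In 2 pairs both were lower: *Snora21* with *Rpl23* (-0.49, limma adjusted p = 0.0179) and *Snora31* with *Tpt1* (-0.43, limma adjusted p = 0.0231). *Rpl23* had 2 probe sets, of which only 1 was called lower. In 1 pair both were higher: *Snora30* with *Srcap*, a chromatin remodeler, which had 10.62 and 10.43 in wild type and 11.11 and 11.36 in mutants (difference 0.71, limma adjusted p = 0.014). Of these hosts, *Ncl* and *Ipo7* kept their calls without each of the 4 arrays. *Nop56*, *Rpl23a*, *Rpl4*, *Rpl23*, *Tpt1* and *Srcap* lost theirs without *Meis2* mutant replicate 2 (limma adjusted p = 0.0945, 0.0621, 0.0635, 0.101, 0.123 and 0.0695). *Nop56*, *Rpl4* and *Rpl23* also lost theirs without wild-type replicate 3, *Rpl4*, *Rpl23* and *Tpt1* without *Meis2* mutant replicate 1, and *Tpt1* without wild-type replicate 2. *Hspa8*, host of *Snord14e*, *Chd8*, host of *Snord8*, and *Rpl10*, host of *Snora70*, did not pass (differences -0.09, -0.12 and 0.10). Across the 28 pairs, which share arrays and in part hosts, Pearson's r between the differences of member and host was 0.06, given as a description.

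**Figure D3:**
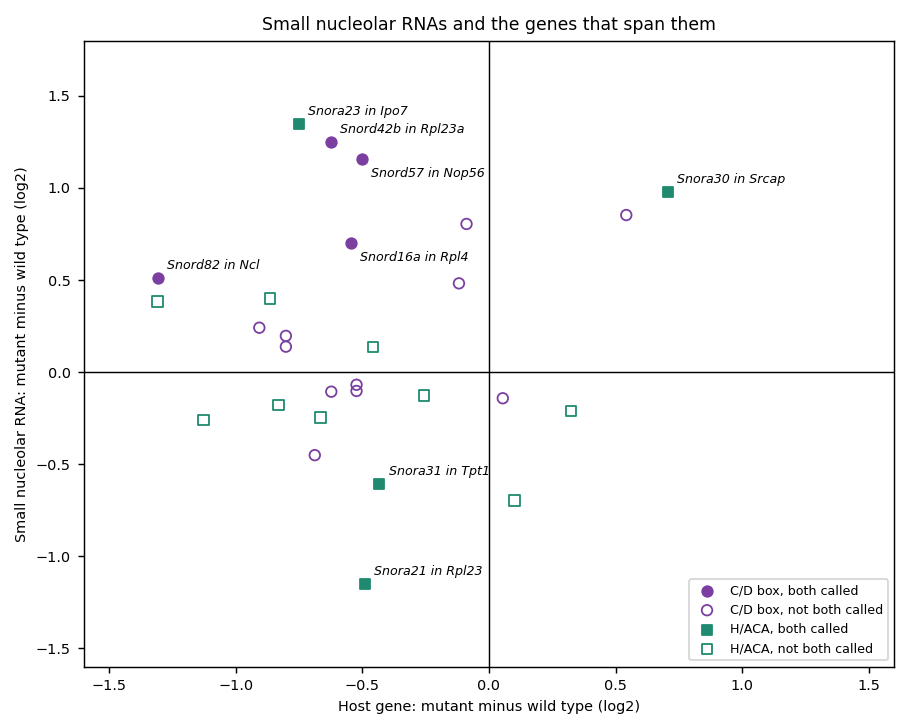
Difference of mutant minus wild type (log2) of the small nucleolar RNA (vertical axis) against that of the gene that spans it (horizontal axis) for the 28 pairs with a measured host; circles are C/D box and squares H/ACA members, filled where both passed the test. Of the 8 filled points, 5 lie in the upper left part (member higher, host lower), 2 in the lower left and 1 in the upper right. Most hosts (19 of 24) lay below 0, whatever the member did.

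Of the 8 genes for core proteins of the particles, 6 were called lower in mutants and none higher. C/D box RNAs are bound by fibrillarin (*Fbl*), *Nop56*, *Nop58* and *Snu13*, and H/ACA RNAs by dyskerin (*Dkc1*), *Gar1*, *Nhp2* and *Nop10*. Of the 4 C/D core genes 2 were lower and none was higher: *Nop58* had mean signals of 9.41 in wild type and 7.87 in mutants and fell by 1.54 (limma adjusted p = 0.00306), and *Nop56* fell as given above. *Fbl* had a difference of -0.25 (limma adjusted p = 0.0808) and *Snu13* of -0.19 (limma adjusted p = 0.183). *Fbl* passed after median scaling (limma adjusted p = 0.0444), and its other probe set was called lower. With gene values averaged over their probe sets, 3 of the 4 C/D core genes were called lower. All 4 H/ACA core genes were lower. *Gar1* had 8.95 and 9.49 in wild type and 7.85 and 7.98 in mutants and fell by 1.31 (limma adjusted p = 0.00923). *Dkc1*, an X-linked gene, fell by 1.02 (limma adjusted p = 0.014), and *Nop10* fell by 0.89 (limma adjusted p = 0.00738). *Nhp2* fell by 0.32 (limma adjusted p = 0.0354), a call that was lost when quantile normalization was repeated (limma adjusted p = 0.0633) and whichever of the 4 arrays was left out (adjusted p of up to 0.179 by limma). *Dkc1* lost its call without *Meis2* mutant replicate 2 (limma adjusted p = 0.0685), which left 1 of 4 C/D and 2 of 4 H/ACA core genes called lower; without wild-type replicate 3 the C/D count was also 1.

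Genes that build, mature or use the particles were lower more often than higher. Of 17 assembly and transport factors, 2 were higher and 9 lower, with a median of -0.40. *Ncbp2*, a subunit of the cap-binding complex, fell by 1.40 (limma adjusted p = 0.00305), and the assembly factors *Znhit6* and *Nufip1* fell by 1.32 and 0.82 (limma adjusted p = 0.00306 and 0.00471). *Naf1*, which precedes Gar1 in H/ACA particles, went the other way and rose by 0.85 (limma adjusted p = 0.00435). Of 18 genes for debranching introns and trimming RNA ends, 1 was higher and 12 lower, with a median of -0.58. The exosome subunits *Exosc1* and *Exosc3* fell by 1.38 and 1.16 (limma adjusted p = 0.00374 and 0.00571). The exonuclease *Xrn2* fell by 1.04 (limma adjusted p = 0.00591), and the exosome cofactor *Mphosph6* fell by 1.35 (limma adjusted p = 0.00637). *Exosc3* and *Mphosph6* had 2 probe sets each, of which only 1 was called lower. Chosen after their values were seen, the lariat debranching enzyme *Dbr1* fell by 0.51 (limma adjusted p = 0.0127), and *Exosc10*, a catalytic subunit of the nuclear exosome, was the gene of this list that rose, by 0.52 (limma adjusted p = 0.0114), whereas *Dis3*, another catalytic subunit, fell by 0.36 (limma adjusted p = 0.0312). Of 34 genes of the small subunit processome, which assembles on the ribosomal RNA precursor, 9 were higher and 15 lower, with a median of -0.30. *Utp6* and *Krr1* fell by 1.07 and 1.38 (limma adjusted p = 0.00329 and 0.00331), whereas the helicase *Dhx37* rose by 0.94 (limma adjusted p = 0.0038). Of 61 ribosomal protein genes, 2 were higher and 37 lower, with a median of -0.48. Without *Meis2* mutant replicate 2 the counts were 1 higher and 6 lower for assembly factors, 0 and 8 for debranching and trimming, 4 and 7 for the processome, and 0 and 18 for ribosomal proteins. Without *Meis2* mutant replicate 1 they were 1 and 6, 0 and 8, 3 and 11, and 0 and 24. The processome count of higher genes was 5 after median scaling, without wild-type replicate 2 or wild-type replicate 3.

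**Figure D4:**
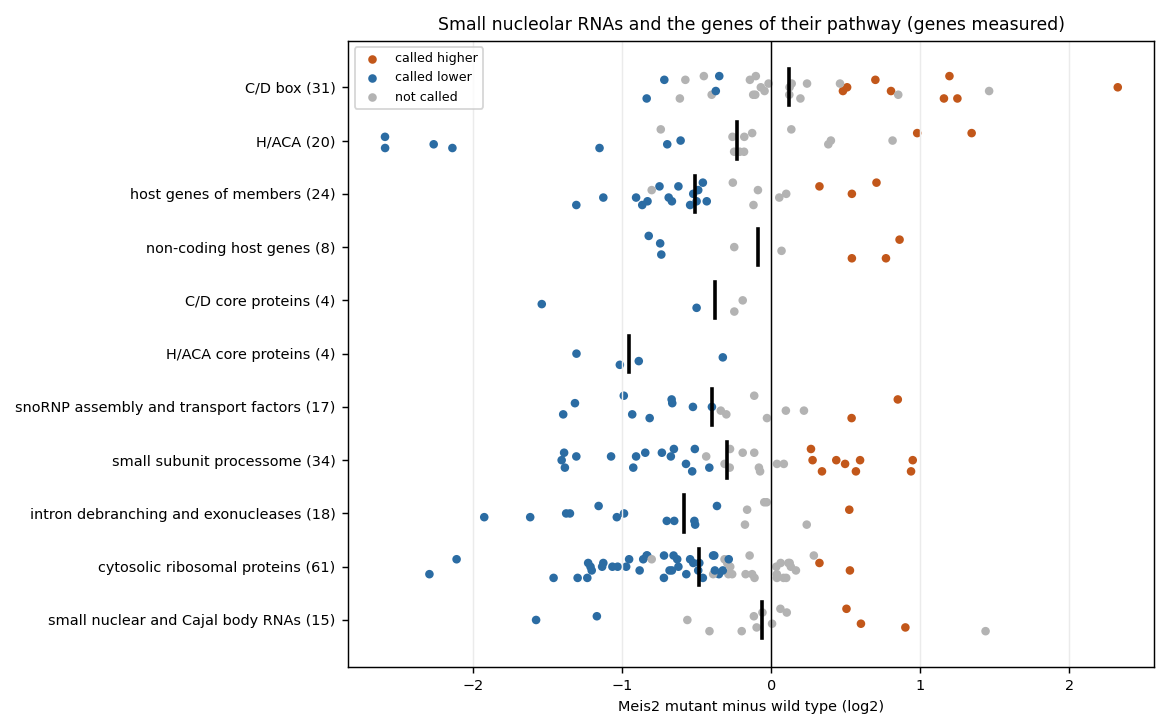
Difference of mutant minus wild type (log2, horizontal axis) of each measured gene (points, orange called higher, blue called lower, grey not called) for the 2 classes of small nucleolar RNAs, their hosts and the lists of their pathway; the number of genes is in brackets and the black bar is the median. Medians lie at 0.12 for C/D box and -0.23 for H/ACA genes, and between -0.30 and -0.95 for core proteins, assembly factors, the processome, debranching and trimming, and ribosomal proteins.

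Other short and non-coding RNAs were called in both directions. Of 15 small nuclear, Cajal body and related RNAs, 3 were higher and 2 lower, with a median of -0.06. *Scarna13* and *Scarna17*, which guide modification of spliceosomal RNAs in Cajal bodies, fell by 1.58 and 1.17 (limma adjusted p = 0.0169 and 0.00411). The spliceosomal RNA *Rnu12* rose by 0.60 and the histone RNA processing factor *Rnu7* by 0.51 (limma adjusted p = 0.0198 and 0.01). *Rnu7* had low signals of 4.41 and 4.43 in wild type and 4.95 and 4.91 in mutants, below the median probe set of 6.69. Without *Meis2* mutant replicate 1 or 2 the counts were 0 higher and 1 lower. With wild-type replicate 2 left out they were 5 higher and 2 lower, and without wild-type replicate 3 they were 3 higher and 5 lower. Of 22 genes listed as non-coding hosts, 8 had a probe set of 1 symbol. Of these, 3 were higher (*Gas5*, *Snhg17* and *Meg3*) and 3 lower (*Snhg5*, *Snhg16* and *Rian*). No member lay in the span of *Meg3*, and 3 of 4 *Gas5* probe sets were called lower. With gene values averaged over their probe sets, 3 were higher and 4 lower, and the median was -0.43, against -0.09 at the probe sets used here. *Snhg17* rose by 0.86 and *Snhg16* fell by 0.74 (limma adjusted p = 0.0163 and 0.00779). Without *Meis2* mutant replicate 1 the counts were 0 and 3, without *Meis2* mutant replicate 2 they were 0 and 1, and without either wild-type array they were 3 and 2. Of 300 microRNA loci, only 61 had a mean signal above the median probe set of 6.69. Among the 300, 75 were higher (25%) and 8 lower (2.7%), against 24.2% and 16.2% of all genes, with a median of 0.20. These counts moved with the setting: 48 were higher and 11 lower after median scaling (median 0.12), and 47 and 13 when quantile normalization was repeated (median 0.11). Leaving out wild-type replicate 2 gave 51 and 4, wild-type replicate 3 gave 36 and 11, *Meis2* mutant replicate 1 gave 23 and 5, and *Meis2* mutant replicate 2 gave 20 and 2. SAM called 194 higher and 28 lower.

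Markers of other cell types differed between the genotypes as well. Of 14 neuronal genes, 8 were lower and none was higher, and their mean signal was 8.90 and 9.05 in wild type against 8.36 and 8.34 in mutants. Of 15 skeletal muscle genes, 11 were higher and none was lower, with mean signals of 6.17 and 6.41 in wild type and 6.73 and 7.07 in mutants. Most of these genes were dim: with probe sets of a mean up to 6.69 left out, 5 remained, and all 5 were higher. The muscle count was 7 after median scaling, 1 without wild-type replicate 2, 6 without *Meis2* mutant replicate 1 and 2 without *Meis2* mutant replicate 2, and without the last of these arrays 3 neuronal genes were lower. Of 15 genes of the cochlear duct epithelium, 6 were higher and 3 lower, but 3 and 3 when wild-type replicate 3 was left out, 3 and 3 when *Meis2* mutant replicate 1 was, and 1 and 2 when *Meis2* mutant replicate 2 was. Of 4 erythroid genes 3 were higher and 1 lower; in each fit that left out 1 array, and after median scaling, at most 1 was higher. Over the 31 C/D box genes the mean signal was 7.56 and 7.41 in wild type and 7.68 and 7.75 in mutants, and over the 20 H/ACA genes it was 8.21 and 7.97 in wild type and 7.64 and 7.55 in mutants. In whole-organ RNA, fewer cells of a type and less RNA per cell cannot be told apart, and the part of cell makeup in the differences of small nucleolar RNAs was not tested.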

How the data were processed

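RNA of whole E15 cochleas was isolated with the RNeasy Mini Kit, amplified with the WT Expression Kit and hybridized to Affymetrix Mouse Gene ST arrays. The authors deposited log2 signals from robust microarray analysis (RMA), in which background is removed, arrays are normalized to each other and probes are summarized to 1 value per probe set. RMA and the build mm8 are named in the submitters' processing notes. Scanner files were not used here.

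Differences were fitted with limma 3.58.1 in R 4.3.3 (lmFit and eBayes, no covariate, no filter) over 35556 probe sets, and the code was tested on simulated data. The array medians were 6.63 and 6.65 for wild type and 6.73 and 6.72 for mutants, and the number of arrays limits the precision. Samples were grouped by the genotype label. The study used significance analysis of microarrays (SAM); it was run here as an alternative, because 2 against 2 arrays allow only 6 relabelings. Probe sets were named from the platform annotation, and those with several symbols were given no gene. A gene was read at its probe set with the highest mean over the 4 arrays.

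The members and gene lists were chosen with earlier results of these data known. Named genes were up to 8 per class and direction with the largest called difference and no overlap, the 5 of each class with the highest mean, hosts of called members, all core proteins, and up to 4 of each other list with the smallest p; others were chosen after their values were seen. A host is the gene whose RefSeq span (GRCm38.p6) holds the member. The table of spans gives no strand for members, so the planned match of strands could not be made. For 3 members with several span genes, the listed non-coding host was taken, or else the protein-coding gene.

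Alternatives were SAM, a trended prior, median scaling, repeated quantile normalization, leaving out dim probe sets (mean up to 6.69), probe sets with 1 symbol only, gene values averaged over their probe sets, a looser threshold (0.1) and fits that each left out 1 array. In the last, the lone array of a genotype is assumed to vary like the others. Leaving out 479 probe sets that repeat the values of another was chosen after seeing the data.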

Additional observations from a re-analysis of the deposited data

How the results depend on the processing

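SAM called 27021 of 35556 probe sets. The paper reported far fewer differential transcripts, most of them downregulated in mutants, so its SAM result was not reproduced here. By limma, more probe sets were called higher than lower. Under SAM, 13 C/D box genes were called higher and 8 lower, and 6 H/ACA genes were called higher. With dim probe sets left out, 1 of the remaining 20 C/D box genes was called lower and their median difference was 0.36. Median scaling gave a C/D box median of 0.038, and quantile normalization, repeated, gave -0.026. Leaving out 1 array gave 5 to 9 C/D box genes called higher, 1 to 5 called lower and a median of -0.011 to 0.14. For H/ACA genes it gave 2 to 4 called higher, 4 to 9 called lower and a median of -0.46 to -0.077. Other counts of the 2 classes stayed within 1.5 times the value given, and their other medians moved by less than the spread between arrays.

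Among 44 named genes, 7, 10, 11 and 17 lost their call without wild-type replicate 2, wild-type replicate 3, *Meis2* mutant replicate 1 and *Meis2* mutant replicate 2. The sign turned for *Snord73b*, whose difference ran from -0.15 to 0.43 when 1 array was left out, and for *Hspa8*, whose mean over all probe sets was 0.15; neither was called. *Snord49b* passed under SAM, a trended prior (limma adjusted p = 0.0413), without dim probe sets (0.0242), with 1-symbol probe sets (0.0151), with means of probe sets (0.0143) and without repeated values (0.0474). No paired analysis was possible because the genotypes share only replicate number 2. Signals near the array background, as for *Snord58b*, limit what the small differences show.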

Other observations

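Probe sets that name a small nucleolar RNA together with another gene were left out of the counts above, and 41 of them hold a name of this kind. Of these, 24 name the *Snord116* family, the imprinted cluster of repeated C/D box genes on chromosome 7 that is expressed from the paternal allele in neurons. They held 7 different sets of values, with signals of 8.96 to 9.55 in wild type and 9.19 to 10.05 in mutants. Their differences were 0.23 to 0.35 and none was called (limma adjusted p = 0.143 to 0.322).

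The others carried 14 names, of which 1 was called higher and 1 lower. The probe set shared by *Snord32a* and its host *Rpl13a* had 9.95 and 9.74 in wild type and 10.99 and 11.31 in mutants (difference 1.31, limma adjusted p = 0.00488). The probe set shared by *Snord34* and *Rpl13a* had 7.60 and 7.41 in wild type and 7.80 and 8.49 in mutants (difference 0.64, limma adjusted p = 0.0929). Both lie in the host that also carries *Snord33* and *Snord35a*. *Snord14e* rose by 0.80, whereas probe sets that name others of its family had differences below 0 and were not called. Those shared by *Snord14c*, *Snord14d* and *Hspa8* gave -0.61 (limma adjusted p = 0.133). That shared by *Snord14a* and *Rps13* gave -0.43 (limma adjusted p = 0.111). The probe set shared by *Snora65* and *Rpl12* had 8.11 and 8.18 in wild type and 6.83 and 6.51 in mutants and fell by 1.48 (limma adjusted p = 0.0036). Such signals may come from either gene named.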
